A study of Homo sapiens with 6 samples.

Results

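The change in the response of A375 cells to vemurafenib between 6 h and 16 h of treatment was described from 4 arrays, 1 for each combination of drug and time. For every gene the vemurafenib difference, vemurafenib minus DMSO on the log2 scale, was taken at 6 h and at 16 h, and the change was the 16 h difference less the 6 h difference. A gene was counted when the change was at least 1 in size, which is 2-fold, and when the highest of the 4 arrays reached log2 6, an intensity of 64. Of 19676 genes measured, 9651 had an array at this floor, and 466 of these passed the size rule. The change was higher at 16 h in 234 of them, which is 2.42% of the 9651, and lower in 232, which is 2.4%. "Rose" and "fell" refer to this rule of size throughout, since 1 array per condition gives no measure of replicate error and no test of a single gene. Just inside the threshold lay ZNF581, with a change of 1.0006, and CDT1, with -1.0007. Just outside it lay ALKBH8, with -0.9965, and PDSS1, with -0.995.

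A375 cells are a long-established melanoma line of human origin in which BRAF is mutated. The groups were DMSO for 6 h, 10 µM vemurafenib for 6 h, DMSO for 16 h and 10 µM vemurafenib for 16 h, with 1 array each. The series of 6 arrays also holds cells given 100 nM AT9283, an inhibitor of several kinases, for 6 h, alone and with 10 µM vemurafenib, and these served here only as another estimate of the 6 h vemurafenib difference. The labels do not say whether the arrays came from separate cultures.

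Vemurafenib blocks mutant BRAF, the kinase that feeds the MEK and ERK cascade in these cells. ERK output includes immediate feedback inhibitors of the cascade such as the DUSP and SPRY genes, and D-type cyclins, which let CDK4 and CDK6 phosphorylate the RB protein and release E2F factors from it. E2F factors then switch on the genes of DNA replication at the entry to S phase. ATF4, named in the title of the series, carries out the integrated stress response by switching on genes of amino acid synthesis, amino acid transport and tRNA charging.

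The 4 arrays had median intensities of 19.94, 20.17, 20.69 and 21.29 (DMSO 6 h, vemurafenib 6 h, DMSO 16 h, vemurafenib 16 h). The 6 h values of 1118 probe sets, 2.04% of 54675, sat on other rows than the 16 h values and were left out. This removed 99 genes. Of 13 melanoma lineage markers measured, 7 lay at the floor on each of the first 3 of these arrays and 8 on the vemurafenib array at 16 h, with summed intensities of 2307.6, 2264.7, 1989.9 and 2304.4. The pigment markers PMEL, MLANA, TYR and TYRP1 and the marker S100A1 were below the floor on all 4 arrays. Of 14 markers of other lineages, 3 lay at the floor on each of the first 3 arrays and 4 at 16 h with vemurafenib, with summed intensities of 2037.4, 2139.1, 2027.1 and 2460.9. PTPRC, CD3E, PECAM1 and EPCAM, markers of immune, endothelial and epithelial cells, did not reach the floor. They were picked from a list on which 3 others did so. The summed intensities of that list were of similar size to those of the melanoma list, so absence of other lineages is not shown. The keratinocyte marker KRT5 of the same list reached the floor, at 6.405, only on the vemurafenib array at 16 h.

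Most of the change lay between the vemurafenib arrays. DMSO at 16 h exceeded DMSO at 6 h by the size rule for 17 of 9055 genes (0.188%) and was lower for 8 (0.0883%). Vemurafenib at 16 h exceeded vemurafenib at 6 h for 387 of 9401 genes (4.12%) and was lower for 348 (3.7%). Over the 9651 genes the SD of the DMSO pair's difference was 0.26 and that of the change was 0.49. Against DMSO of the same time, vemurafenib at 6 h was higher for 94 of 9095 genes (1.03%) and lower for 195 (2.14%), and at 16 h it was higher for 491 of 9469 genes (5.19%) and lower for 548 (5.79%). The 6 h difference was also available from AT9283 with vemurafenib minus AT9283 alone. That pair shares no array with the first, but has AT9283 on both sides and so is a different drug condition. The SD over genes between both estimates was 0.196, and 26 of the 9651 genes (0.269%) differed by 1 or more.

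The 466 genes were sorted into classes by their 2 differences. A late rise or late fall had a 6 h difference within 0.5 of 0 and a 16 h difference of at least 1 in size. There were 139 late rises (1.44% of 9651 genes) and 145 late falls (1.5%). A difference of at least 0.5 in size at 6 h became larger in 71 rising genes (0.736%) and 53 falling genes (0.549%). A rise of at least 1 at 6 h shrank by at least 1 in 5 genes (0.0518%), and a fall did so in 8 (0.0829%). The difference changed sign, with at least 0.5 on either side, in 3 genes (0.0311%). The remaining 42 fell between these definitions.

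**Figure D1:**
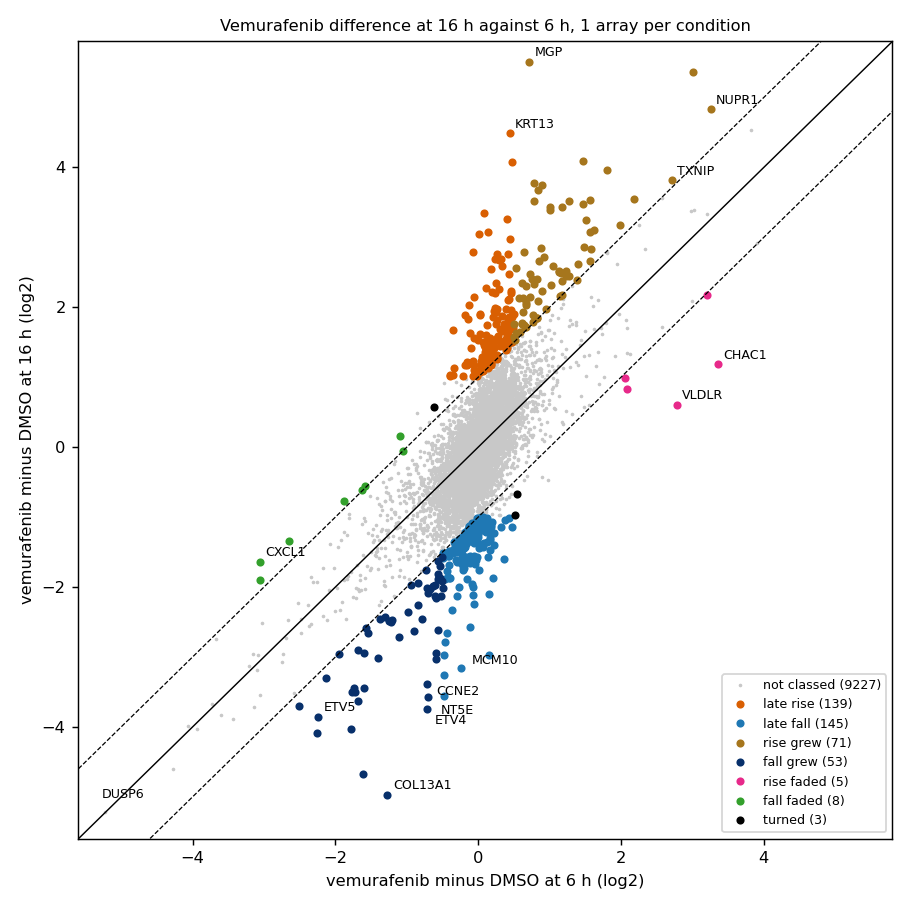
Vemurafenib minus DMSO at 16 h (vertical axis, log2) against the same difference at 6 h (horizontal axis, log2) for the 9651 genes with an array at the floor, 1 array per condition. The solid line marks equal differences and the dashed lines a change of 1 in either direction; the 139 late rises and 145 late falls lie above and below the centre, and the 5 faded rises lie to the lower right.

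Genes already past the size rule at 6 h mostly kept their difference. Of the 94 that had risen, 14 rose further by at least 1, 5 went back by at least 1 and 75 lay between, with medians of 1.46 at 6 h and 1.57 at 16 h. Of the 195 that had fallen, 22 fell further, 8 went back and 165 lay between, with medians of -1.42 and -1.55. None of the 94 and none of the 195 was past the rule in the opposite direction at 16 h. The ERK phosphatase DUSP6 was such a gene, with log2 levels of 9.50 in DMSO and 4.28 in vemurafenib at 6 h and of 9.60 and 4.38 at 16 h. Its differences were -5.23 and -5.22, with both vemurafenib levels below the floor, where a further fall may not register.

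A limma model over the 6 arrays, with terms for vemurafenib, AT9283, time and the change of the vemurafenib difference with time, called 2832 of 9707 genes after Benjamini-Hochberg adjustment at 0.05. The change was higher in 1118 (11.5%) and lower in 1714 (17.7%). Its 1 residual degree of freedom holds the interaction of both drugs at 6 h and no replicate error. It called, in the same direction, 133 of the 139 late rises, 143 of the 145 late falls, 66 of the 71 grown rises and 50 of the 53 grown falls. It called 7 of the 8 faded falls, 3 of 3 turned genes and 0 of the 5 faded rises. Since the members were chosen on 4 of the same arrays, these counts are a description.

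DNA replication genes made up the most uniform late fall. Of 54 genes of DNA replication and the G1/S transition with an array at the floor, 37 (68.5%) fell between 6 h and 16 h, against 2.4% of all genes, and 0 rose. The median vemurafenib difference of the list was -0.01 at 6 h and -1.25 at 16 h, and the median change was -1.27, against -0.02 for all genes. All 54 changes were below 0, from -2.91 to -0.10, and 34 of the 37 were late falls. In bulk RNA, fewer cells in S phase and less of these transcripts per cell cannot be told apart.

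Promoters are shown for 4 genes of the list that fell and whose promoter letters hold an E2F-type match. The 250 bases before the start of each gene, from RefSeq on GRCh38.p14, were searched on both strands for 6 E2F-type words: TTTCGCGC, TTTGGCGC, TTTCCCGC, TTTGGCGG, TTTCGCGG and TTTCCCGG, whose matches can overlap one another. DTL lies at chr1:212035498-212035747 (plus strand), POLE2 at chr14:49688215-49688464 (minus strand), UHRF1 at chr19:4909251-4909500 (plus strand) and CDC25A at chr3:48188418-48188667 (minus strand), each given here as the promoter window in the direction of transcription. Capitals mark the match, which starts 8 bases before the start in DTL, 206 in POLE2 and 44 in CDC25A. In UHRF1 the capitals cover 2 overlapping matches, at 18 and 14 bases before it.
DTL: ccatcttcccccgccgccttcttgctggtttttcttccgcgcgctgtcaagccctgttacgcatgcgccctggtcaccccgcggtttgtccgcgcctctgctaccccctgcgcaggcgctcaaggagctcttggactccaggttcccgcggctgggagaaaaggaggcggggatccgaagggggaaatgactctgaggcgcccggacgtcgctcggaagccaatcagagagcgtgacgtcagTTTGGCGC
POLE2: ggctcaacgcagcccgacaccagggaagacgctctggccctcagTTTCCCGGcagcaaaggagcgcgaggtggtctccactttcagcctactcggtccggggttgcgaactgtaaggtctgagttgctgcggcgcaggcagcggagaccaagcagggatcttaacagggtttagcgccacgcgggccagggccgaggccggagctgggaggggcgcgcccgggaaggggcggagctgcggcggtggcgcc
UHRF1: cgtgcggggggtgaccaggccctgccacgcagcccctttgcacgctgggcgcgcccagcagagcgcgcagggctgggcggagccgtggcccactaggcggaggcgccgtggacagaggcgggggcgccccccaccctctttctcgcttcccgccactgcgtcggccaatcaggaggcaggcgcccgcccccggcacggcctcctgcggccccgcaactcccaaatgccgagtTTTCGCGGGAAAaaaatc
CDC25A: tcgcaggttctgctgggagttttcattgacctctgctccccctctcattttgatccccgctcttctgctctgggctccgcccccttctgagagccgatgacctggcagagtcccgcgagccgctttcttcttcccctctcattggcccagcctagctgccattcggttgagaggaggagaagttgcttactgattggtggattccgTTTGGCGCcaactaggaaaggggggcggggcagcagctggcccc

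A match was present in 4.45% of 27305 promoters and in 7.71% of the 8065 matched genes with an array at the floor. It was present in 14 of 30 matched replication genes that fell (46.7%) and in 6 of 16 that did not pass the rule (37.5%). Among the late falls as a whole it was present in 27 of 120 (22.5%), and among the late falls outside the replication list in 14 of 93 (15.1%). Among the late rises it was present in 3.7% of 108. A match describes the letters of the window and is not evidence of binding.

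The genes that load and activate the replicative helicase fell most often, 16 of 18, with a median change of -1.47. MCM10, which helps to start the helicase at origins, had log2 levels of 9.21 in DMSO and 8.97 in vemurafenib at 6 h, and of 8.76 and 5.60 at 16 h. It was low on the vemurafenib array at 16 h alone. Its difference went from -0.24 to -3.16, 8.91-fold lower, a change of -2.91, and its other probe sets changed by -2.68 and -2.54. CDC6, which loads the helicase onto the origin complex, stood at 9.12 and 8.90 at 6 h and at 8.78 and 7.02 at 16 h, a change of -1.54. The same pattern, 3 arrays close together and the fourth lower, held for the helicase subunits MCM2 to MCM7, whose changes ran from -1.71 (MCM5) to -1.23 (MCM3). The origin factor ORC1 changed by -1.55, CDC45 and GINS2, partners of the active helicase, by -1.54 and -1.62, and DBF4 and GINS3 did not pass the rule at -0.93 and -0.90.

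Of 16 genes of the polymerases, the sliding clamp and ligation, 10 fell, with a median change of -1.14. POLE2, a subunit of the leading strand polymerase, stood at 8.15 in DMSO and 8.08 in vemurafenib at 6 h and at 8.31 and 6.19 at 16 h. It was lower on the last array, and its change was -2.05. The clamp PCNA changed by -1.28, the clamp loader subunits RFC3, RFC4 and RFC2 by -1.53, -1.48 and -1.13, and the flap nuclease FEN1 by -1.38. RFC5, another loader subunit, and RPA3, a subunit of the single-strand binding complex, had changes of -0.10 and -0.23. Of 4 genes of deoxynucleotide supply only RRM2, the small subunit of ribonucleotide reductase, fell, from 11.73 in DMSO to 10.28 in vemurafenib at 16 h after 11.91 and 11.71 at 6 h. The thymidylate synthase TYMS changed by -0.98 and the thymidine kinase TK1 by -0.29.

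Of 8 genes of chromatin assembly and fork protection 6 fell, with a median change of -1.48. DTL, the adaptor of a ubiquitin ligase that removes the licensing factor CDT1 in S phase, stood at 9.68 and 9.56 at 6 h and at 9.45 and 6.88 at 16 h, 5.96-fold lower in vemurafenib. The exonuclease EXO1 stood at 8.36 and 8.51, then at 8.14 and 6.04, a change of -2.25. UHRF1, which keeps DNA methylation through replication, stood at 11.08 and 10.79, then at 10.80 and 8.67. Between the DMSO arrays DTL and EXO1 each moved by -0.22 and UHRF1 by -0.28.

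Of 8 regulators of the G1/S transition 4 fell, with a median change of -0.96. CCNE2, a cyclin that activates CDK2, stood at 8.86 in DMSO and 8.38 in vemurafenib at 6 h and at 8.57 and 5.31 at 16 h, a change of -2.78. Its difference at 6 h was -0.48, and another CCNE2 probe set had -0.58 at 6 h and changed by -2.66. E2F8, a repressor of the E2F family, stood at 6.93 and 7.14, then at 7.09 and 5.21, below the floor. Of the 4 that fell, only CDC25A, the phosphatase that activates CDK2, had a 6 h difference beyond 0.5 in size on the probe set used. It was -0.89 at 6 h, with levels of 8.84 and 7.95, and -2.63 at 16 h, with 8.28 and 5.65. CCNE1, which did not pass the rule, also had an early difference, -0.67 at 6 h, and changed by -0.57. Further CDC25A probe sets at the floor changed by -2.24 and -0.48. E2F1 did not pass the rule. Its levels were 7.30 and 7.02 at 6 h and 5.85 and 4.98 at 16 h, so that DMSO alone was lower by 1.45 at 16 h, and its change was -0.59.

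**Figure D2:**
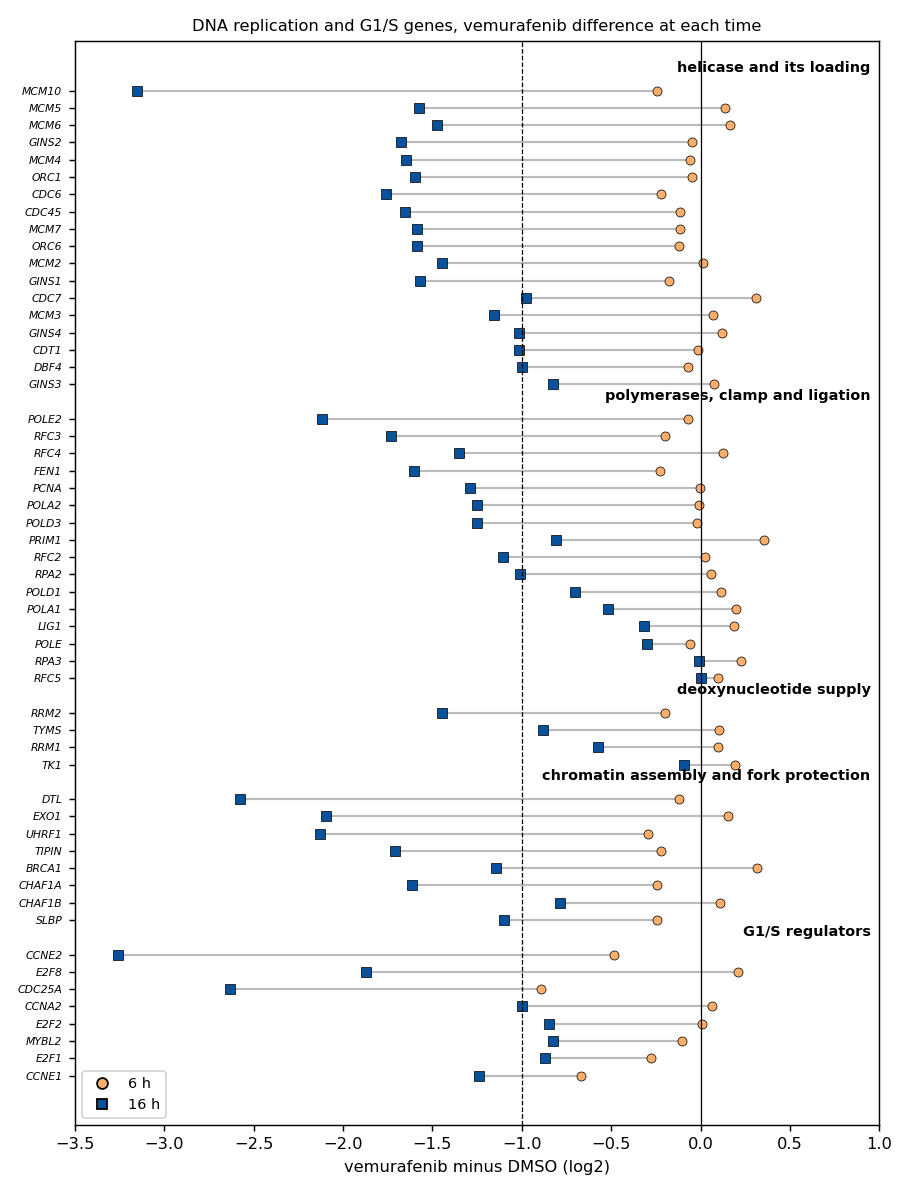
Vemurafenib minus DMSO (horizontal axis, log2) at 6 h (circles) and at 16 h (squares) for the 54 replication and G1/S genes with an array at the floor, grouped by role, 1 array per condition; the dashed line marks -1. Every square lies to the left of its circle, with MCM10 and CCNE2 the farthest.

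The upstream cell cycle genes were mixed. The RB relative RBL1 went from 7.02 to 5.37 between the vemurafenib arrays against 6.81 and 6.59 in DMSO, a change of -1.44 that became -0.81 with values below the floor set to log2 6, and cyclin D3 (CCND3) changed by -1.02. They were the 2 of 14 genes of the CDK inhibitor and RB list that fell (14.3%, against 2.4% of all genes), and 0 rose. CCND1, the D-type cyclin most directly tied to ERK, stood at 10.14 and 7.56 at 6 h and at 9.55 and 6.04 at 16 h, so its fall was present early, and its change of -0.94 missed the rule. The CDK inhibitors CDKN1B and CDKN1A had changes of 0.08 and 0.77, and RB1 itself had a change of 0.02.

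Mitotic genes moved less than replication genes. Of 37 measured, 1 fell, MAD2L1 of the spindle checkpoint, and 0 rose. This share, 2.7%, was near the 2.4% of all genes. The list had a median difference of 0.18 at 6 h and -0.31 at 16 h and a median change of -0.46. MAD2L1 stood at 10.39 and 10.31 at 6 h and at 10.37 and 9.15 at 16 h. The kinase AURKA had a change of -0.61 and cyclin B1 (CCNB1) of -0.49. All 37 changes were below 0, from -1.13 to -0.11. With the limma fit the changes of AURKA and CCNB1 had adjusted p values of 0.00845 and 0.00447, on the 1 residual degree of freedom described above.

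Ribosome biogenesis genes, which build ribosomal subunits in the nucleolus, had fallen a little by 6 h and more by 16 h. The median difference of 32 genes was -0.30 at 6 h and -0.92 at 16 h, and all 32 changes were below 0. Of these LYAR and MRTO4 passed the rule (6.25%, against 2.4% of all genes). LYAR stood at 10.81 and 10.25 at 6 h and at 10.35 and 8.47 at 16 h, and MRTO4 at 10.02 and 9.71, then at 9.67 and 8.19. The vemurafenib array at 16 h was the lowest of the 4 for both. Of 22 genes of purine and pyrimidine synthesis 2 fell (9.09%, against 2.4% of all genes), with a median change of -0.60. They were CTPS1, which makes CTP, with a change of -1.53, and RRM2, given above. At 16 h alone, 11 of the 32 ribosome genes and 5 of the 22 nucleotide genes were lower than DMSO by at least 1. Over all genes 560 of 9651 were.

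Outside the growth lists, the largest late falls included secreted and surface proteins. IGFBP3, which binds insulin-like growth factors, stood at 7.86 in DMSO and 8.01 in vemurafenib at 6 h and at 8.07 and 5.10 at 16 h, a change of -3.12. NT5E (CD73), the surface enzyme that makes adenosine, stood at 8.96 and 8.49, then at 9.27 and 5.71, 11.7-fold lower. On these probe sets both were lower by more than 0.5 only on the last array. The other 3 NT5E probe sets at the floor had already fallen at 6 h, with differences of -2.72, -1.49 and -2.76, and changed by -1.03, -2.52 and -0.78, so the late timing of NT5E rests on 1 of 4 probe sets. CCN1, a matricellular target of the YAP pathway, stood at 10.30 and 9.83, then at 10.47 and 7.68. Another CCN1 probe set had a 6 h difference of -0.62, beyond the limit for a late fall, and changed by -2.11. With AT9283 present the 6 h difference of CCN1 was -1.06. The related gene CCN2 had fallen at 6 h, from 9.44 to 7.66, and at 16 h stood at 8.96 and 5.45. CYB5R2, a cytochrome b5 reductase, ended at 3.92, below the floor, and its change of -2.49 became -0.41 with low values set to log2 6.

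IGFBP3, NT5E, CCN1 and CCN2 are on a list of the undifferentiated, neural crest-like melanoma state. Of its 22 genes 5 fell (22.7%, against 2.4% of all genes) and 0 rose, with a median change of -0.09. The fifth was FOSL1, an ERK output gene described with that list. The list did not move as a whole: AXL, EGFR and SOX9 had changes of -0.06, -0.18 and 0.82. Of 35 genes of extracellular matrix and adhesion 5 fell (14.3%, against 2.4% of all genes) and 1 rose, with a median change of -0.19. The collagenase MMP1 stood at 8.80 and 8.53 at 6 h and at 8.80 and 6.80 at 16 h. TIMP3, an inhibitor of such proteases, changed by -1.46, though another of its probe sets had a difference of -2.10 at 6 h already and changed by -0.43. The collagen COL6A3 lay below the floor on all arrays but DMSO at 16 h, and its change of -1.22 became -0.24 with low values set to log2 6. Fibronectin (FN1), at -0.64, and the integrin ITGB1, at 0.02, did not pass the rule. In the BCL2 family PMAIP1 (NOXA), which promotes cell death, changed by -1.41, with 9.30 and 9.47 at 6 h and 9.38 and 8.15 at 16 h.

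Of the 145 late falls, 39 ended below the floor on the vemurafenib array at 16 h, where a log2 difference has less precision. With the 6 h difference taken from the AT9283 arrays, 135 of the 145 kept a change of -1 or lower. The 16 h difference that selected these genes was used again, so the count concerns the 6 h side only. DMSO had moved by at least 0.5 in 4 of them. Of 56 late falls with 2 or more probe sets, all probe sets had the same sign in 55 and all passed the size in 30.

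Of the 139 late rises, 88 were below the floor on both DMSO arrays, and DMSO had moved by at least 0.5 in 31. The floor was set on the highest of the 4 arrays, so a riser could pass it through vemurafenib alone. A faller could hardly do so, and the same count was 0 for the 145 late falls. The 88 are thus in part a product of the filter. The 139 had a median difference of 0.18 at 6 h and 1.52 at 16 h. With the 6 h difference from the AT9283 arrays and the same 16 h difference, 113 kept a change of 1 or more. Of the 139, 101 remained late rises there. The highest change was that of KRT13, a keratin of stratified epithelium, at 2.15 in DMSO and 2.59 in vemurafenib at 6 h and at 3.30 and 7.79 at 16 h. MAP1LC3C, of the LC3 family of autophagy proteins, stood at 5.23 and 5.70, then at 5.11 and 9.18. Both were above the floor on the last array alone, so the changes of 4.05 and 3.61 rest on values below the floor on the other 3, and KRT13 was higher by 1.15 in DMSO at 16 h than at 6 h.

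KRT15, another epithelial keratin, stood at 5.37 and 5.50 at 6 h and at 5.89 and 8.97 at 16 h, 8.43-fold higher in vemurafenib. KRT5 and KRT14, on the list of other lineage markers, had changes of 1.05 and 0.95, the former 0.405 with low values set to log2 6. Their list, whose summed intensity was highest on the vemurafenib array at 16 h, had 1 riser among 4 genes at the floor, and its part in the keratin values was not tested. The adhesion protein CNTN4 stood at 2.62 and 2.70, then at 3.30 and 6.64, and the secreted protein SCUBE3 at 4.80 and 4.81, then at 4.59 and 7.64. COL21A1, a minor collagen, and CA2, a carbonic anhydrase, changed by 2.88 and 2.50. These 4 ended between 6.45 and 7.64 and were below the floor elsewhere. With low values set to log2 6, the changes of CNTN4, COL21A1 and CA2 were 0.64, 0.68 and 0.45, short of the rule, and that of SCUBE3 was 1.64.

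IRF9, the DNA-binding subunit of the interferon-activated ISGF3 complex, rose late, from 5.73 in DMSO and 6.22 in vemurafenib at 6 h to 5.56 and 7.46 at 16 h. It was the 1 of 23 interferon and antigen presentation genes past the rule, where 2.42% of all genes rose. The list had a median difference of 0.08 at 6 h and 0.42 at 16 h. Of its 23 changes 19 were above 0, against 4560 of 9651 for all genes. HLA-B and HLA-C, class I antigen presenting molecules, had changes of 0.61 each, and TAP2, a peptide transporter, went the other way with -0.89. Of 18 p53 targets 2 rose and 1, SESN2, fell, against 2.42% and 2.4% of all genes. ZMAT3 rose late, with a change of 1.03 that its 3 other probe sets at the floor did not reach. TP53INP1, of the next class, changed by 1.81.

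Genes that had begun to rise at 6 h and rose further had a median difference of 0.89 at 6 h and 2.48 at 16 h. Of these 71 genes, 53 were below the floor on both DMSO arrays, which the floor rule favours in risers, as for the late rises. MGP, a matrix protein that inhibits calcification, stood at 4.50 in DMSO and 5.21 in vemurafenib at 6 h and at 4.13 and 9.64 at 16 h. The last array stood apart, and the change of 4.80 was the highest of the 9651 genes. A further MGP probe set, below the floor on all 4 arrays, changed by 0.97. SERPINF1, a secreted inhibitor of blood vessel growth, stood at 4.77 and 5.67, then at 4.46 and 8.21, and ASS1, which makes arginine from citrulline by way of argininosuccinate, at 4.42 and 5.43, then at 4.51 and 7.94. The cytochrome CYP1B1 changed by 2.84, the sialyltransferase ST6GALNAC2 by 2.73, the endocytic adaptor STON1 by 2.63 and the choline transporter SLC5A7 by 2.39. CLIC3, a chloride channel protein, changed by 2.99, though DMSO alone was higher by 1.38 at 16 h. The number in this class fell from 71 to 25 when values below the floor were set to log2 6, and SLC5A7, at 0.62, was among those lost.

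TXNIP, which restrains glucose uptake and thioredoxin, was well expressed in each condition, at 7.17 and 9.88 at 6 h and at 7.63 and 11.44 at 16 h. Its rise of 2.71 became 3.81, a change of 1.10. It was the 1 of 23 FOXO and PI3K feedback genes past the rule, where 2.42% of all genes rose. Its relative ARRDC4 had a change of 0.99 and ARRDC3 one of -0.92. The death-promoting BMF stood at 5.25 and 5.86, then at 5.04 and 6.81, a change of 1.17, or 0.81 with low values set to log2 6. GPNMB, a glycoprotein of pigment cells and lysosomes, went from 7.75 and 8.37 to 7.83 and 9.76, and changed by 0.59 on another probe set. Of 12 pigment cell genes 2 rose and 1 fell (8.33%), against 2.42% and 2.4% of all genes. GPNMB and the lineage factor SOX10 were the risers and the kinase CDK2 the faller. SOX10 stood at 9.14 and 8.32 at 6 h and at 8.71 and 8.99 at 16 h, so a difference of -0.82 became 0.28, though another SOX10 probe set changed by 0.14, while MITF, the main pigment cell regulator, had differences of 0.61 and 0.63.

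**Figure D3:**
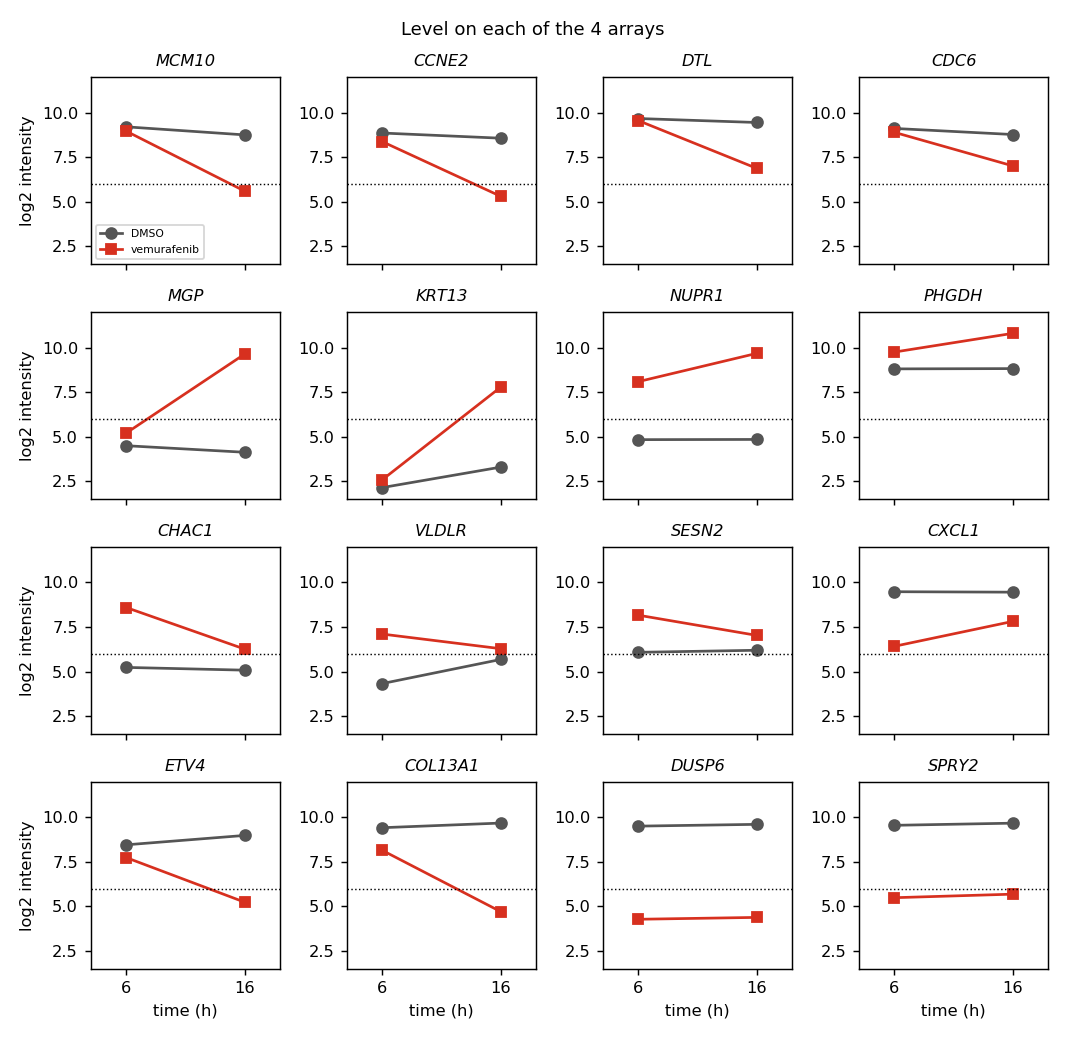
Log2 intensity (vertical axes) on the DMSO arrays (circles) and vemurafenib arrays (squares) at 6 h and 16 h (horizontal axes) for 16 genes, 1 array per point; the dotted line is the floor of log2 6. MCM10, CCNE2, DTL and CDC6 separate by at least 1 only at 16 h. CHAC1, VLDLR and SESN2 draw closer by 16 h, with vemurafenib still above DMSO. DUSP6 and SPRY2 stay apart by about the same distance.

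Among ERK output genes, most of the fall was present by 6 h. The median difference of 28 genes was -2.11 at 6 h and -2.52 at 16 h. Of these 5 fell further (17.9%, against 2.4% of all genes) and 0 rose. The feedback genes SPRY2, SPRY4 and DUSP4 had changes of 0.08, -0.07 and -0.23, and PHLDA1 one of 0.51. Vemurafenib levels at 6 h were already below the floor for DUSP6, SPRY2, SPRY4 and CXCL8, at 4.28, 5.49, 4.81 and 3.29. A further fall may not register there. IER3, with a change of -0.10, and PHLDA1 were above the floor on that array, at 6.65 and 8.04. The immediate early gene EGR1 was below the floor on all 4 arrays.

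The genes that fell further included the 3 PEA3 factors, ETS-family transcription factors downstream of ERK. ETV4 stood at 8.46 in DMSO and 7.74 in vemurafenib at 6 h and at 8.98 and 5.24 at 16 h, and its difference went from -0.72 to -3.75. ETV5 stood at 8.17 and 5.93, then at 8.68 and 4.82, and ETV1 at 8.45 and 6.50, then at 9.02 and 6.05. In all 3 the DMSO array was higher at 16 h than at 6 h, by 0.53, 0.51 and 0.57, and the vemurafenib array was lower. FOSL1, an AP-1 subunit, stood at 9.27 and 6.76, then at 9.30 and 5.60. MYC stood at 7.44 and 5.31, then at 7.24 and 3.94. Both of its vemurafenib values lay below the floor, and the change of -1.17 became 0.20 with low values set to log2 6. ERK output genes that fell further were then 2 in place of 5, since ETV5 at -0.51 and FOSL1 at -0.79 also missed the rule.

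The largest grown fall was that of COL13A1, a collagen of the cell membrane, at 9.42 and 8.14 at 6 h and at 9.68 and 4.71 at 16 h. On this probe set vemurafenib was lower at both times, 2.42-fold and then 31.4-fold. The other COL13A1 probe sets at the floor changed by -0.91 and -0.75, short of the rule, with 16 h differences of -1.46 and -1.68. TFPI2, a protease inhibitor of the matrix, changed by -2.44 and SFRP1, which binds Wnt proteins, by -2.04, and both remained above the floor on each array. The integrin ITGB3 stood at 6.47 and 5.77, then at 6.08 and 2.51. Its change of -2.88 became 0.39 with low values set to log2 6. SERPIND1, a thrombin inhibitor, NTM, a neural adhesion protein, and SH2D1B, a signalling adaptor, changed by -2.66, -2.36 and -2.24. All ended below the floor. With low values set to log2 6, SERPIND1 at -0.07 and NTM at -0.17 no longer passed, and SH2D1B did at -1.11. SH2D1B was higher by 1.49 in DMSO at 16 h than at 6 h. Of the 53 grown falls, 32 ended below the floor, and in 3 DMSO moved more than vemurafenib.

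The 5 faded rises were all members of the ATF4 lists, which were chosen with earlier results of these data known. Of 121 genes at the floor on any of the 4 arrays and with a 6 h rise of at least 1, 18 were on these lists. The promoter of CHAC1, the gene with the largest fading, is shown because a search of both strands for the ATF4 composite element, TGATGNAAN, found a match 210 bases before its start. The window is chr15:40953221-40953470 (plus strand) of GRCh38.p14, from RefSeq, and the capitals mark the match, which lies on the opposite strand.
CHAC1: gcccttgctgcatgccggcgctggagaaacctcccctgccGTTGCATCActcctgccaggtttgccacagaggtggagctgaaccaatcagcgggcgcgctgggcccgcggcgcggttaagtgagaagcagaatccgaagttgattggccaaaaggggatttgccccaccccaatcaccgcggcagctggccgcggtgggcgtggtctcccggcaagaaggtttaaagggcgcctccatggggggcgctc

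The element was present in 3.18% of 27305 promoters, in 1.44% of the genes with an array at the floor and in 1 of the 4 faded rises matched to a promoter. CHAC1 degrades glutathione. It stood at 5.23 in DMSO and 8.59 in vemurafenib at 6 h and at 5.08 and 6.26 at 16 h, so vemurafenib was 10.3-fold higher at 6 h and 2.27-fold higher at 16 h. VLDLR, a lipoprotein receptor, stood at 4.33 and 7.10, then at 5.68 and 6.28. Its DMSO level was 1.35 higher at 16 h, more than the fall of its vemurafenib level, and its change was -0.82 with low values set to log2 6. SESN2, which restrains mTORC1 when leucine is short, stood at 6.08 and 8.16, then at 6.20 and 7.03.

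The other faded rises were enzymes of amino acid synthesis. PSPH, the last step of serine synthesis, stood at 7.73 and 9.77 at 6 h and at 8.17 and 9.16 at 16 h, and CTH, which makes cysteine, at 6.08 and 9.28, then at 6.07 and 8.25. Vemurafenib remained above DMSO at 16 h in all 5 genes, by 0.60 to 2.18. Other probe sets of SESN2 and CTH changed by -0.70 and -0.78, short of the rule. The fading depended on the 6 h arrays used, and the AT9283 arrays are also a different drug condition. With the 6 h difference from the AT9283 arrays, the changes were -0.99 for CHAC1, -0.51 for VLDLR, -0.42 for SESN2, -0.12 for PSPH and 0.85 for CTH, and 0 of the 5 passed the rule. Their 6 h differences in the presence of AT9283 were 2.17, 1.12, 1.25, 1.11 and 1.33, against 3.36, 2.78, 2.08, 2.05 and 3.20 without it. A smaller 6 h rise with AT9283 present and variation between arrays cannot be told apart. The limma fit, which joins both estimates, gave adjusted p values of 0.0575 for CHAC1 and 0.941 for CTH. Among the misplaced probe sets DDIT4, a stress-induced mTORC1 inhibitor, also faded when its rows were put back, with 10.28 and 11.56 at 6 h and 10.92 and 10.97 at 16 h.

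Other ATF4 program genes moved both ways. Of 60 genes in the 4 lists 2 rose and 5 fell (8.33%), against 2.42% and 2.4% of all genes. Their median differences were 0.57 at 6 h and 0.53 at 16 h. Of the 60 changes 25 were above 0, against 4560 of 9651 for all genes. NUPR1, a stress-induced chromatin protein, stood at 4.84 and 8.09 at 6 h and at 4.85 and 9.68 at 16 h, and PHGDH, the first step of serine synthesis, at 8.81 and 9.75, then at 8.82 and 10.80. DMSO was the same within 0.02 at both times in both genes. ATF4 itself stood at 11.22 and 12.21, then at 11.21 and 11.82, a change of -0.38, and DDIT3 (CHOP) and TRIB3, targets that act in stress and cell death, had changes of -0.38 and -0.39. The asparagine synthetase ASNS went the other way, from 8.98 and 10.92 to 8.82 and 11.44, a change of 0.69.

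By role, 24 stress regulators had a median difference of 0.91 at 6 h and 0.48 at 16 h, with 6 of 24 changes above 0. JDP2 at -0.90, CEBPG at -0.83 and ATF3 at -0.80 were among those short of the rule. The 13 amino acid synthesis genes had medians of 0.94 and 0.99, with ALDH1L2 at 0.91 and CBS at 0.58 in the rising direction. The 10 amino acid transporters had medians of 0.38 and 0.04, and 0 passed the rule. The 13 tRNA charging genes had medians of 0.44 and 0.58, and WARS1, SARS1 and AARS1, which charge tryptophan, serine and alanine, were higher than DMSO by 1.51, 1.32 and 1.16 at 16 h. With the AT9283 arrays at 6 h, the median change of the stress regulators was 0.18 in place of -0.39 and that of the synthesis genes 0.71 in place of 0.12.

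**Figure D4:**
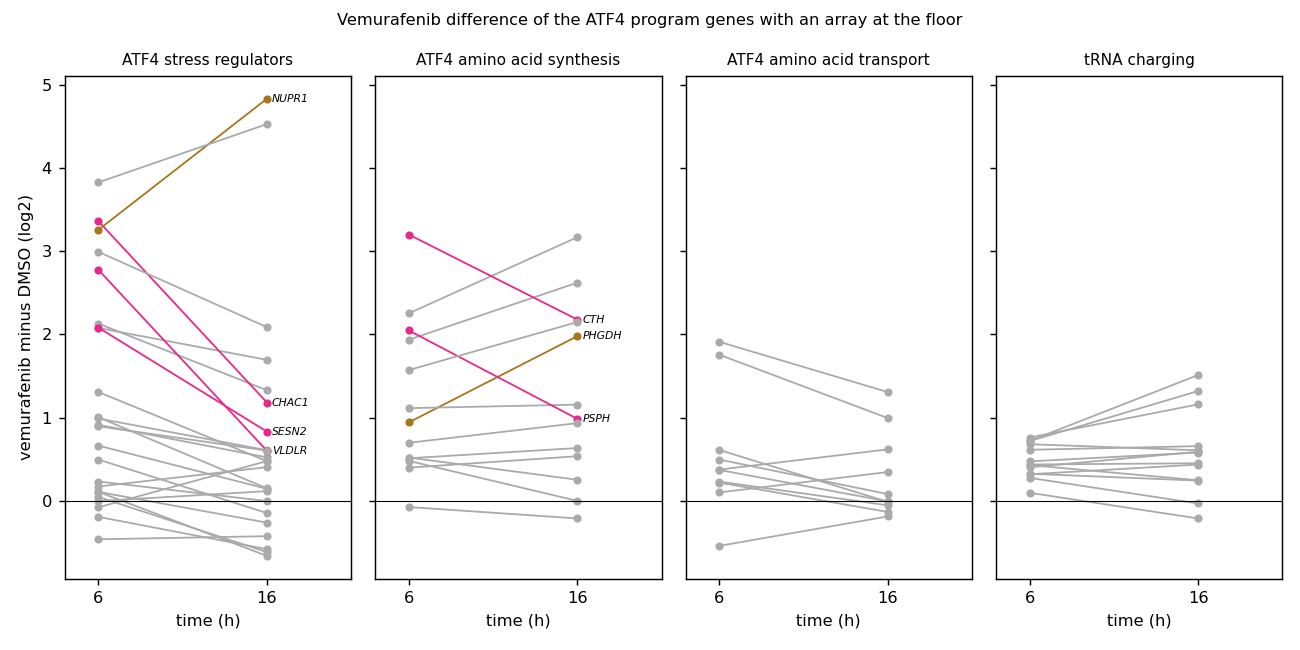
Vemurafenib minus DMSO (vertical axis, log2) at 6 h and 16 h (horizontal axis) for the 60 ATF4 program genes with an array at the floor, in 4 panels by role, 1 array per condition. Named lines passed the size rule: CHAC1, VLDLR, SESN2, PSPH and CTH came down, and NUPR1 and PHGDH went up.

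The 8 faded falls included secreted inflammatory proteins. The chemokine CXCL1 stood at 9.48 in DMSO and 6.42 in vemurafenib at 6 h and at 9.46 and 7.82 at 16 h, 8.35-fold and then 3.11-fold lower. The pattern recognition protein PTX3 stood at 10.68 and 7.62, then at 10.16 and 8.25, and STC1, a secreted glycoprotein, at 7.43 and 4.78, then at 7.53 and 6.19. In all 3 vemurafenib stayed below DMSO at 16 h. The change of STC1, 1.30, was 0.05 on another probe set and 0.08 with low values set to log2 6. The chemokine CXCL8, by contrast, stayed down, with differences of -4.28 and -4.60, and so did the cytokine IL24, with -2.70 and -2.73. Of 17 inflammatory genes 2 rose and 1 fell (5.88%), against 2.42% and 2.4% of all genes.

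TSC22D1, a transcription regulator, stood at 10.52 and 9.46 at 6 h and at 10.71 and 10.66 at 16 h, a change of 1.01, with 0.36 on another probe set. EIF5A2, a translation factor, GSAP, a regulator of gamma-secretase, and SERTAD4 changed by 1.11, 1.04 and 1.03. The other SERTAD4 probe sets changed by 0.72, 0.68 and, the opposite way, -0.93. Of 5 faded falls with 2 or more probe sets, all probe sets had the same sign in 4 and all passed the size in 0. With low values set to log2 6, EIF5A2 at 0.46, GSAP at 0.66 and UBE2QL1 at 0.51 no longer passed. UBE2QL1, related to ubiquitin-conjugating enzymes, changed by 1.25, of which 1.02 was a lower DMSO level at 16 h. With the AT9283 arrays 3 of the 8 kept a change of 1 or more, CXCL1 with 1.06 and UBE2QL1 with 1.26 among them.

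Of the 3 genes whose difference changed sign, 2 have a known product. The secreted protease ADAMTS1 stood at 7.45 in DMSO and 7.96 in vemurafenib at 6 h and at 7.78 and 6.80 at 16 h, so that vemurafenib was the highest array at 6 h and the lowest at 16 h. The transcription factor ETS1 did the reverse, with 9.71 and 9.09, then 9.25 and 9.83, and its other probe sets changed by 1.14 and 0.40. The limma fit, which holds no replicate error, gave ADAMTS1 a change of -1.58. All 3 kept a change of at least 1 in size with the AT9283 arrays and the same 16 h difference. Of the 3, 2 still met the definition of the class there.

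Several lists had 0 genes past the rule. The 18 ER chaperones, which fold secretory proteins, had a median change of -0.10 and 27 genes of glycolysis and hypoxia -0.02. For 14 genes of cholesterol synthesis and uptake it was -0.15, and for 26 of the lysosome and autophagy 0.19. Of these 26 changes 20 were above 0, against 4560 of 9651 for all genes. The 15 housekeeping genes had a median change of -0.00, from -0.28 to 0.67. The median change of the replication list ran from -1.35 to -1.13 over the processing alternatives, that of mitosis from -0.47 to -0.39 and that of ribosome biogenesis from -0.72 to -0.52.

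**Figure D5:**
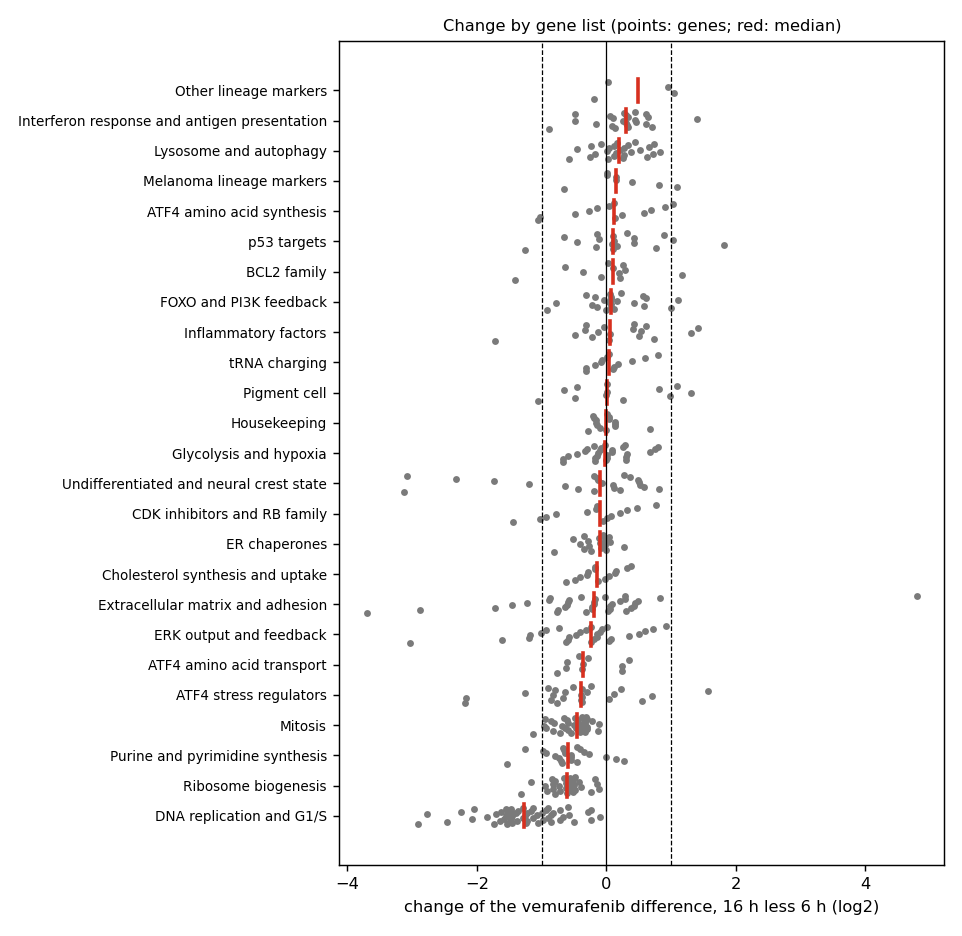
Change of the vemurafenib difference from 6 h to 16 h (horizontal axis, log2) for each gene with an array at the floor, by gene list, with the list median as a red bar and dashed lines at -1 and 1. DNA replication has the lowest median, -1.27, followed by ribosome biogenesis and nucleotide synthesis at -0.60 each; the other medians lie between -0.46 and 0.49.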

How the data were processed

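Labelled cRNA from A375 cells was hybridised to Affymetrix arrays, 1 array per condition. The authors deposited linear intensity values per probe set, and the submitters' processing notes name RMA. Its version, or whether all arrays were normalized together, was not given in the sources used here. Arrays were assigned from their labels. With arrays in place of reads, their number limits the precision.

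In 6 blocks of the deposited table the 6 h values of 1118 probe sets belonged to other rows: the DMSO arrays correlated at 0.455 there as deposited and at 0.984 once put back, against 0.992 over 53495 others. These and 62 control probe sets were left out. The 41097 probe sets with 1 gene symbol in the platform annotation were used, each gene by its probe set with the highest mean. Values were converted to log2. The size rule, classes and 25 gene lists were chosen with earlier results of these data known. Named genes are the 8 largest changes per class, up to 6 list members past the rule per list, and 25 genes of interest; list members named beside these were chosen after their values were seen. Limma 3.58.1 in R 4.3.3 was fitted to 6 arrays with Benjamini-Hochberg adjustment (prior degrees of freedom 4.37). Python 3.11.15, numpy 2.4.6 and pandas 2.3.3 did the rest, and the steps were tested on simulated data. Alternatives were scaling, the floor, low values, probe set choice, the size, the row order and the AT9283 arrays at 6 h. Promoter sequences came from RefSeq, GRCh38.p14.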

Additional observations from a re-analysis of the deposited data

Results flagged for a closer look

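The vemurafenib difference went opposite ways at 6 h and 16 h in 3 genes, and the difference was not tested against replicates, since each time had 1 array per condition. The limma fit over the 6 arrays, with 1 residual degree of freedom that holds the interaction of both drugs, called the change in 3 of 3. ADAMTS1 had a difference of 0.52 at 6 h and -0.98 at 16 h. ETS1 had -0.62 and 0.58. The uncharacterised locus LOC105379499 had 0.54 and -0.67.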

How the results depend on the processing

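No paired analysis was possible because each condition has 1 array. No replicate could be left out for the same reason. Quantile normalization left 93 of 93 named genes within the SD of the DMSO pair. Array centring did too, but it shifts every gene by the same amount. Other floors leave the change of a gene as it is, and the named genes were chosen without the misplaced rows. The same count under those settings was therefore largely fixed in advance. No setting moved the median change of all genes beyond -0.04 to 0.01. Counts moved by over 1.5 times as follows. With a size of 1.5, the counts were 78 higher, 60 lower, 46 late rises, 29 late falls, 31 and 24 grown rises and falls, 2 and 0 faded rises and falls, 0 turned, 16 replication genes, 3 ATF4 program genes and 2 ERK output genes. With 32 added to each intensity they were 135 higher, 123 lower, 81 late falls, 24 and 23 grown, 3 and 2 faded, 1 turned and 2 ERK output genes. With low values set to log2 6 they were 155 higher, 25 and 30 grown, 5 faded falls and 2 ERK output genes, and ITGB3 reversed to 0.39 and MYC to 0.20; several single genes that lost their call there are given with their values above. Late rises numbered 113 with low values set to log2 6 and 102 with 32 added, within 1.5 times of 139. Their members changed more, since only 75 and 74 of these were among the 139. The mean of all probe sets gave 124 higher, 79 late rises, 36 grown rises, 2 and 2 faded, 4 ATF4 and 3 ERK output genes. Without shared probe sets there were 35 grown falls, 4 ATF4 and 2 ERK output genes. A floor of log2 7 gave 145 higher and 77 late rises, a floor of 5 gave 8 turned, and no floor gave 8 faded rises and 11 turned. Quantile normalization gave 3 faded rises, and centring on genes at log2 6 or more gave 5 turned. The AT9283 arrays gave 0 faded rises and 8 turned, and CTH reversed to 0.85. Limma gave 1118 higher and 1714 lower. The cause of these moves was not tested.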
